A study of Mus musculus with 6 samples.

Results

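The Wnt genes described here are the ligands, their receptors and co-receptors, the secreted antagonists, the R-spondin axis, the β-catenin destruction complex and the TCF/LEF factors. Members were taken by gene symbol, with no expression value in the rule, and 59 protein-coding genes of the 54532 gene IDs in the files carried one of the symbols. Their RNA was measured by RNAseq in mammary tumors of NeuT/ATTAC mice, 3 from mice given an isotype-matched IgG and 3 from mice given an anti-PD-1 mAb. All 6 tumors came from mice that carry the MMTV-NeuT transgene, in which the MMTV promoter drives Erbb2 in the mammary epithelium, together with the FAT-ATTAC transgene, through which AP20187 kills fat cells. AP20187 was given to every mouse at 0.4 mg/kg, starting at 6 weeks of age, triweekly by the methods of the study and biweekly by the sample labels. From 8 weeks of age the mice also received 100 μg of either antibody 2 times per week for 4 months. No tumor without AP20187 or without an antibody was part of these data. The FAT-ATTAC mice were C57BL/6 and were crossed into FVB. A legend of the study describes the RNA as pooled within a group, whereas the files hold 3 separate profiles per group. Because no source used here ties each tumor to its own mouse, p-values measure the spread between these samples only.

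Wnt ligands are secreted lipid-modified proteins that bind a Frizzled receptor together with the co-receptor Lrp5 or Lrp6. In the canonical branch this stops the complex of Axin, Apc and kinases from marking β-catenin for destruction, and β-catenin then joins TCF/LEF factors on DNA. R-spondins bind Lgr4, Lgr5 or Lgr6 and withdraw the ligases Znrf3 and Rnf43, which otherwise remove Frizzled from the cell surface. Sfrp proteins and Wif1 bind the ligands, and some of the Dickkopf (Dkk) proteins bind the co-receptors. Wnt5a and Wnt5b act mostly outside β-catenin, through Frizzled and Ror receptors. In the mammary gland Wnt4 and Rspo1 take part in duct branching and stem cell renewal, and Wnt1 and Wnt3 were found as genes switched on by insertion of the mammary tumor virus.

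The deposited values are FPKM (fragments scaled by exon length and by library size), which allow levels of different genes to be compared. The values were multiplied by exon length and divided by the value of 1 read, which was estimated for each tumor. They then fell on whole reads, within 0.1 of a whole number, for 55 of the 59 genes in all tumors. The total per tumor was 21065845 to 23843887 reads over all gene IDs recovered in this way. IgG replicate 1 resembled the anti-PD-1 tumors more than the other IgG tumors, with a Pearson correlation across the tested genes, which are not independent, of 0.951 to 0.958 against 0.935 and 0.937. Epithelial RNA led in every tumor, with Epcam at 683 to 878 FPKM in IgG and 986 to 1142 FPKM in anti-PD-1 tumors. The summed level of 9 luminal markers overlapped, with 1924 to 2666 FPKM in IgG and 2525 to 3650 FPKM in anti-PD-1 tumors. Markers of basal cells summed to 17.6 to 43.9 FPKM (8 genes), of macrophages to 187 to 392 (7 genes), of endothelium to 9.31 to 20.2 (5 genes), of adipocytes to 1.77 to 6.94 (5 genes) and of epidermis to 0.814 to 2.01 (6 genes). Acta2 (10.2 to 36.8 FPKM) was the largest part of the basal sum, and Fabp4 (1.34 to 5.63 FPKM) that of the adipocyte sum. Nerve markers (5 genes) summed to 222 to 353 FPKM, carried by Sox10. In 2 of the lists the sums did not overlap between the groups, and among all single genes tested 18.1% did not. T cell markers (7 genes, 1 of them with a mean of at least 0.5 FPKM) summed to 2.49, 6.45 and 2.69 FPKM in the IgG tumors and 2.02 to 2.32 FPKM in anti-PD-1 tumors, so that IgG replicate 2 alone stood well above. Cartilage markers (6 genes) summed to 279 to 454 FPKM in IgG and 534 to 896 FPKM in anti-PD-1 tumors, carried by Col9a1, Col11a1 and Comp while Matn1 was at 0. Of these 3 genes only Comp did not overlap, with 18.3 to 124 FPKM in IgG and 194 to 519 FPKM in anti-PD-1 tumors. The part of either in the Wnt genes that differed was not tested. Fibroblast markers (10 genes) summed to 246, 88.1 and 123 FPKM in the IgG tumors, in the order of their replicate numbers, and to 368, 99.4 and 220 FPKM in those given anti-PD-1. Skeletal muscle markers (5 genes) summed to 135, 74.6 and 147 FPKM in IgG replicate 2 and anti-PD-1 replicates 1 and 2 and to at most 5.26 FPKM in the other 3 tumors. In bulk tumor RNA, fewer cells of a type and less RNA per cell cannot be told apart.

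Of the 59 genes, 13 had a mean over the 6 tumors of at least 10 FPKM, 14 a mean between 2 and 10 and 9 a mean between 0.5 and 2. These 36 genes were tested between the groups. A further 19 genes had reads in at least 1 tumor but a mean under 0.5 FPKM, and 4 genes (Wnt1, Wnt3a, Rspo2 and Dkk4) had no read in any tumor. A count of 0 allows up to 3 reads, which for these 4 genes is at most 0.0573, 0.0494, 0.0267 and 0.104 FPKM in that order. This bound covers counting error only. The highest gene was Ctnnb1, which encodes β-catenin, with 118 to 166 FPKM, followed by Fzd7, Lrp5, Sfrp1, Lrp6, Fzd6, Fzd9, Lgr4, Axin1 and Wnt5b with means from 33.8 down to 14.6 FPKM. Several receptor and intracellular genes varied little across the 6 tumors. Ctnnb1, Lrp5, Lrp6, Lgr4 and Apc each spanned no more than 1.40-fold from the lowest to the highest tumor, whereas Lgr6 spanned 217-fold and Dkkl1 31.6-fold.

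**Figure D1:**
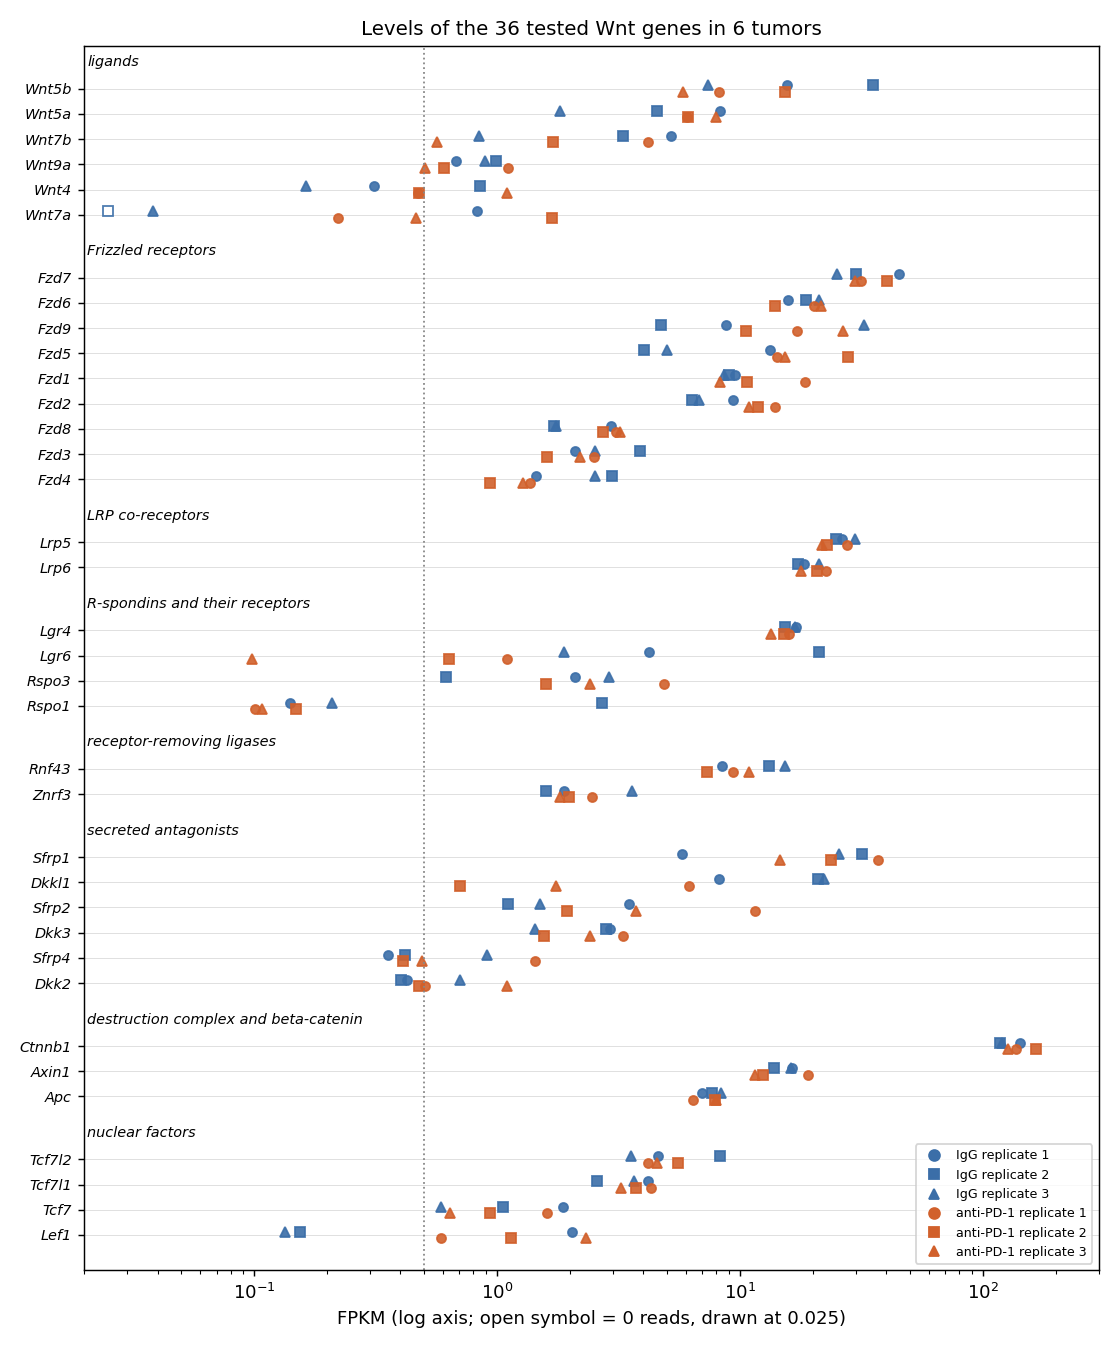
FPKM of the 36 tested Wnt genes on a log axis, 1 symbol per tumor, grouped by role and ordered by mean. Dotted line: 0.5 FPKM, the mean required for testing. The open symbol at the left edge is Wnt7a in IgG replicate 2, which had 0 reads. Ctnnb1 stands highest at 118 to 166 FPKM, while Lgr6, Dkkl1, Rspo1, Wnt7a and Lef1 spread most widely over the tumors.

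The design asks which of these genes differ between anti-PD-1 and IgG tumors. For each gene, log2(FPKM + 1) was compared with limma, and the p-values were adjusted over all 15069 genes with a mean of at least 0.5 FPKM. Adding 1 understates the change of low genes. None of the 36 Wnt genes had an adjusted p under 0.05 with limma (the smallest was 0.344), and the share over all genes tested was 0%. With limma's voom on the recovered reads, 0 of the 33 Wnt genes that could be fitted had one (the smallest was 0.327), where 1 of 14377 genes did. An unadjusted p under 0.05 was found for 5 of the 36 Wnt genes (13.9%) and for 12.3% of all genes. In these 5 genes, and in no other tested Wnt gene, the groups did not overlap, which held for 18.1% of all genes. Of the 36, 2 were higher without overlap (9.30% of all genes) and 3 lower (8.75%). The study's gene list took a 1.5-fold change or more with an unadjusted p up to 0.05, and its statistics came from DESeq2 on read counts. It also took a minimum raw score that was not applied here. The first 2 thresholds were applied here to limma on log2(FPKM + 1), an unlike measure in which the fold change is that of FPKM + 1. Past the first 2 of these thresholds, Fzd5 and Fzd2 were higher (2 of 36, against 3.90% of all genes) and Dkkl1 and Lgr6 lower (2 of 36, against 4.53%). Together these make 11.1% of the tested Wnt genes, close to the 8.43% of all genes. Fzd4, the remaining gene at an unadjusted p under 0.05, was lower by less than 1.5-fold on this scale (-0.57). With 0.1 added in place of 1 (-0.86, unadjusted p = 0.0419) and with voom (-0.92, unadjusted p = 0.0300), both limma fits, it passed both thresholds. Its limma unadjusted p was 0.0527 after quantile normalization and 0.0752 with no filter on low genes. With 3 tumors against 3 the exact permutation test cannot give a p under 0.1, and these 5 genes all reached that floor. Of the 36 genes, 19 had a log2 fold change above 0, and the median was 0.03 against 0.01 for all genes tested.

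**Figure D2:**
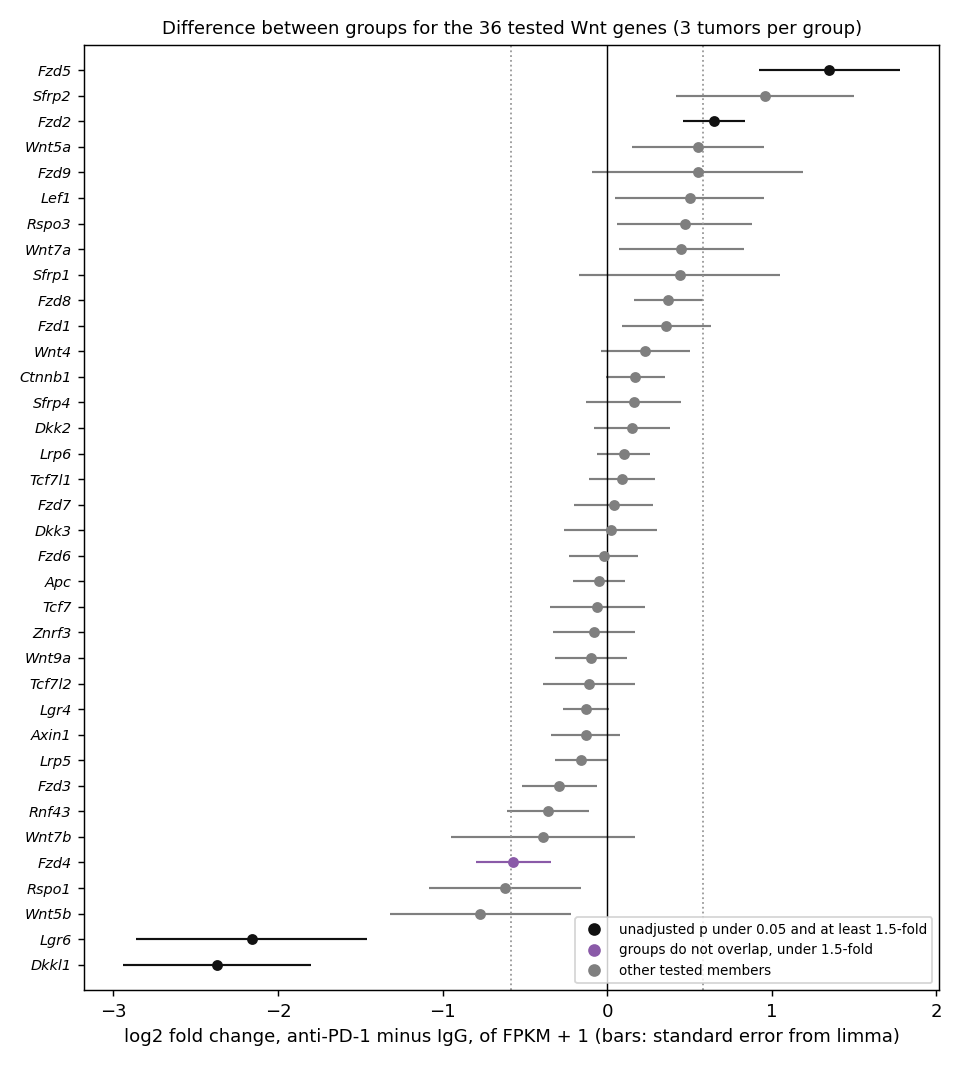
Log2 fold change of FPKM + 1, anti-PD-1 minus IgG, for the 36 tested Wnt genes, with bars of 1 standard error from limma and dotted lines at 1.5-fold. Fzd5 and Fzd2 lie to the right and Lgr6 and Dkkl1 to the left beyond the lines with an unadjusted p under 0.05, and most other genes lie within 1.5-fold.

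For the 3 genes with the largest changes past both thresholds on the log2(FPKM + 1) scale, the 250 bases before the RefSeq start site are shown for reference, read 5′ to 3′ on the strand of the gene in GRCm38. They lie at chr7:45211884-45212133 for Dkkl1, chr1:135105277-135105526 for Lgr6 and chr1:64737751-64738000 for Fzd5, all on the minus strand. The Dkkl1 window lies inside the span of Dkkl1 in the gene annotation used here (45207519 to 45212147). It is therefore not upstream of the start in that annotation.
Dkkl1: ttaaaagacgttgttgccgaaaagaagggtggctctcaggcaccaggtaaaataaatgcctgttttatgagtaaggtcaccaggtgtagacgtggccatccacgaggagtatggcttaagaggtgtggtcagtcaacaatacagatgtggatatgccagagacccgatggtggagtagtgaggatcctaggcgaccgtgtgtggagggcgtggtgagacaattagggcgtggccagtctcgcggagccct
Lgr6: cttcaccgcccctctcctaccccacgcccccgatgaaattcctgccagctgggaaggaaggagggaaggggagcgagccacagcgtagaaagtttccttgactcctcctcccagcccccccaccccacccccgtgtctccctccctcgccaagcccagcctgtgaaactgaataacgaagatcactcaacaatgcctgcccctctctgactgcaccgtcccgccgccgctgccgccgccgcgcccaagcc
Fzd5: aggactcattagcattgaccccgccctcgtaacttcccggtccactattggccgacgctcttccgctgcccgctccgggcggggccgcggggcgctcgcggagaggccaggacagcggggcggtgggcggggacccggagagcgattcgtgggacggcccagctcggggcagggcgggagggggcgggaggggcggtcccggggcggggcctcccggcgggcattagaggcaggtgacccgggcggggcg
The Fzd5 stretch had 76.4% G and C and 32 CpG, that of Lgr6 65.2% and 16 and that of Dkkl1 52.4% and 11, where the median of all such windows was 52.4% and 6. They are in lower case throughout because none of the 3 holds the TCF/LEF letters CTTTGAT on either strand. Over all 32851 windows 3.21% hold these letters, and of the 49 windows of the 39 Wnt genes found among the RefSeq start sites 2 hold them (4.08%), 1 of Wnt11 and 1 of Wnt5b.

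Among the ligands, 6 of 19 passed the filter and none had an unadjusted p under 0.05. Wnt5b and Wnt5a supplied most of the ligand RNA. Wnt5b had 15.7, 35.4 and 7.39 FPKM under IgG and 8.22, 15.4 and 5.82 FPKM under anti-PD-1, in the order of replicates 1 to 3 that is kept for all values listed for the tumors. The groups overlapped, and IgG replicate 2 stood above all others (log2 fold change -0.77, standard error 0.55, limma adjusted p = 0.596). The value was -0.24 without IgG replicate 2, -0.48 without anti-PD-1 replicate 3 and -1.29 without IgG replicate 3, where it passed both thresholds (limma unadjusted p = 0.0354). Fbxl14, which overlaps Wnt5b on the other strand, shares 0 exonic bases with it. Wnt5a had 8.25, 4.55 and 1.82 FPKM under IgG and 6.05, 6.13 and 7.97 FPKM under anti-PD-1, so that IgG replicate 1 was above all anti-PD-1 tumors and the other IgG tumors below them. As a share of the summed FPKM of the 19 ligands, Wnt5b took 49.2%, 76.0% and 59.0% under IgG and 37.9%, 57.6% and 32.0% under anti-PD-1. Wnt5a took 25.8%, 9.78% and 14.6% under IgG and 27.9%, 23.0% and 43.7% under anti-PD-1. Wnt5b was the leading ligand in 5 tumors and Wnt5a in anti-PD-1 replicate 3. The total over all ligands was 30.3 ± 17.1 FPKM (SD, n = 3) in IgG and 22.2 ± 4.27 FPKM (SD, n = 3) in anti-PD-1 tumors.

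Wnt7b, a ligand of lung and mammary epithelium, had 5.21, 3.29 and 0.845 FPKM under IgG and 4.18, 1.70 and 0.564 FPKM under anti-PD-1. Both groups thus held tumors with much and with little Wnt7b. Its paralog Wnt7a was low and uneven, with 0.824, 0 and 0.0384 FPKM under IgG and 0.221, 1.69 and 0.462 FPKM under anti-PD-1, from 0 to 131 reads, and was at 0 in IgG replicate 2 alone. Wnt4 ranged from 0.164 FPKM in IgG replicate 3 to 1.10 FPKM in anti-PD-1 replicate 3, and Wnt9a from 0.503 to 1.11 FPKM. The ligands with a mean under 0.5 FPKM included Wnt11 (13 to 66 reads), Wnt2 (11 to 30 reads) and Wnt2b (10 to 47 reads), each seen in all 6 tumors. Wnt6 had 18 of its 27 reads in IgG replicate 2, and Wnt10b reached 20 reads. Wnt16, Wnt10a and Wnt8a had at most 8, 5 and 5 reads, Wnt9b 2 and Wnt3 1, and Wnt8b, whose reads could not be recovered, at most 0.0481 FPKM. Several of the ligands with few or no reads are neighbors in the genome. Wnt10b and Wnt1 lie 11.7 kb apart on chromosome 15, Wnt9b and Wnt3 24.3 kb apart on chromosome 11, Wnt6 and Wnt10a 6.19 kb apart on chromosome 1, and in none of these 6 genes did a tumor exceed 0.340 FPKM. The remaining such pair, Wnt3a and Wnt9a at 16.2 kb on chromosome 11, joined a gene without reads to one at up to 1.11 FPKM.

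**Figure D3:**
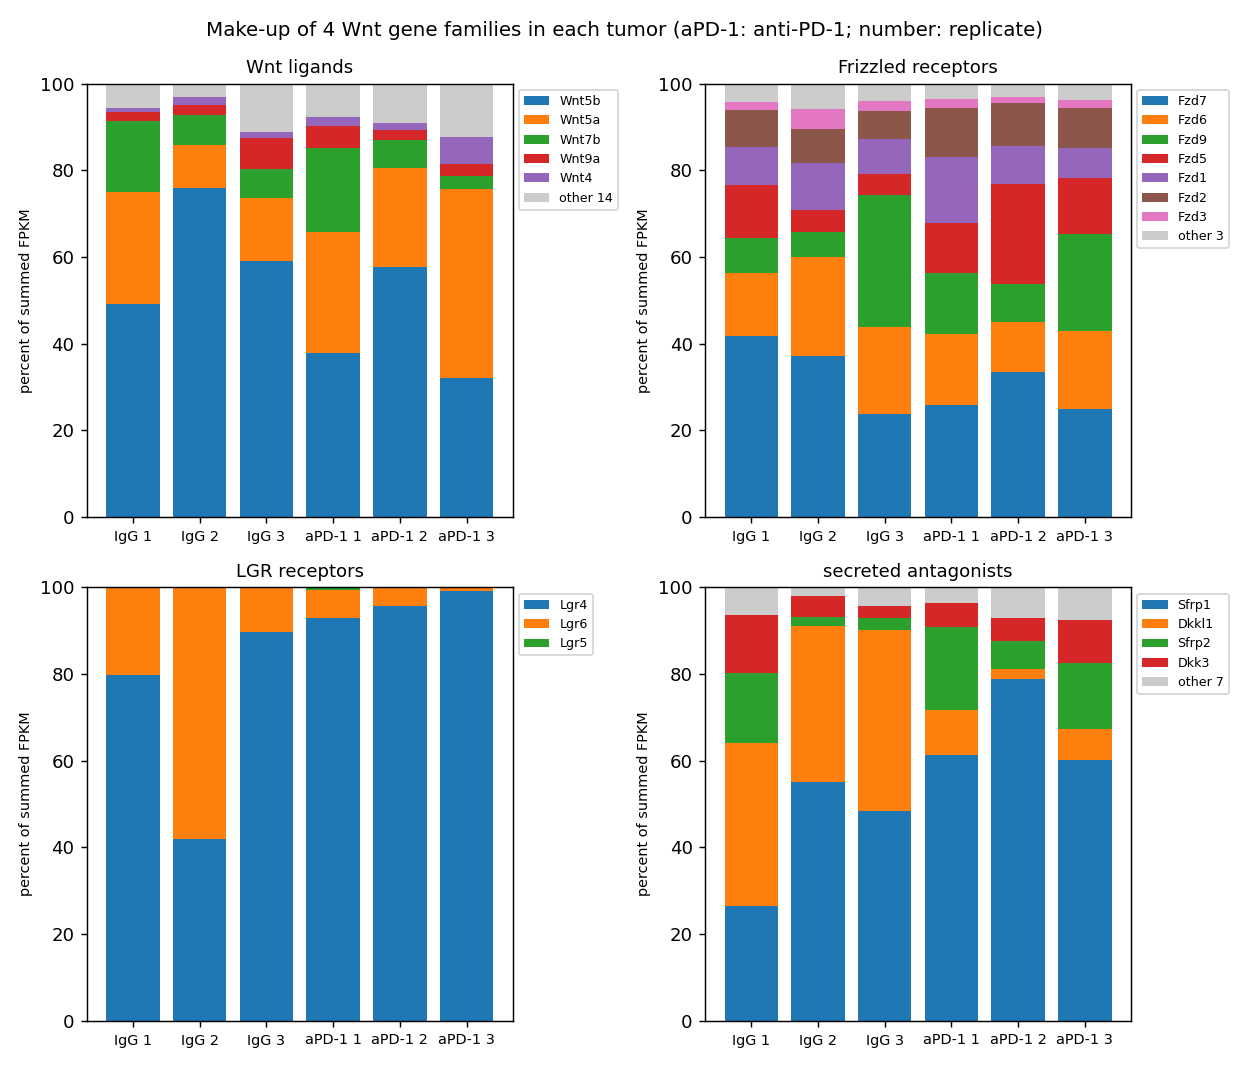
Share of each gene in the summed FPKM of its family, as stacked percent bars for the 6 tumors. Wnt5b leads the ligands except in anti-PD-1 replicate 3, Lgr6 makes up 57.9% of the LGR receptors in IgG replicate 2, and Dkkl1 makes up 36.2% to 41.7% of the antagonists in IgG and 2.34% to 10.2% in anti-PD-1 tumors.

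Of the 10 Frizzled receptors 9 were tested, and 3 of these had an unadjusted p under 0.05 and groups without overlap, against 12.3% and 18.1% of all genes. Their summed level was 109, 81.6 and 106 FPKM under IgG and 123, 121 and 119 FPKM under anti-PD-1. Fzd5 (chromosome 1 from 64730558 to 64737751), a receptor of intestinal and other epithelia, made up 4.71% to 12.2% of this sum in IgG and 11.6% to 23.1% in anti-PD-1 tumors. It had 13.3, 4.04 and 5.0 FPKM under IgG and 14.2, 27.9 and 15.3 FPKM under anti-PD-1. IgG replicate 1 came within 1 FPKM of the lowest anti-PD-1 tumor, and anti-PD-1 replicate 2 was far above the rest. Its log2 fold change was 1.35 (standard error 0.43, limma unadjusted p = 0.0157 and adjusted p = 0.355). Leaving out IgG replicate 2, IgG replicate 3 or anti-PD-1 replicate 2 gave log2 fold changes of 1.05, 1.18 and 1.06 and unadjusted p-values of 0.0584, 0.0557 and 0.0601 from limma. Gm38058, on the other strand, covers 1233 of the 6915 exonic bases of Fzd5 and had at most 0.169 FPKM.

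Fzd2 (chromosome 11 from 102604396 to 102608058), a receptor used by Wnt5a in mesenchymal cells, moved less but more evenly. It had 9.37, 6.35 and 6.80 FPKM under IgG and 13.9, 11.9 and 10.9 FPKM under anti-PD-1. The 3 anti-PD-1 tumors all lay above the 3 IgG tumors. The log2 fold change was 0.65 (standard error 0.19, limma unadjusted p = 0.0104 and adjusted p = 0.344). It stayed at an unadjusted p under 0.05 with any 1 tumor left out, but leaving out IgG replicate 2 (0.54) or anti-PD-1 replicate 1 (0.56) took it under 1.5-fold. The summed fibroblast markers were 88.1 to 246 FPKM in IgG and 99.4 to 368 FPKM in anti-PD-1 tumors, and their part in Fzd2 was not tested. Fzd4 (chromosome 7 from 89404355 to 89413134), the receptor of Norrin in blood vessels, went the other way. It had 1.45, 2.98 and 2.53 FPKM under IgG and 1.37, 0.933 and 1.28 FPKM under anti-PD-1. The groups were separated by less than 0.1 FPKM, and the log2 fold change was -0.57 (standard error 0.23, limma unadjusted p = 0.0439 and adjusted p = 0.397). Without any 1 of the tumors other than IgG replicate 1 its unadjusted p was above 0.05. The summed endothelial markers were 20.2, 13.9 and 18.6 FPKM under IgG and 17.1, 9.31 and 13.8 FPKM under anti-PD-1, and their part in Fzd4 was not tested.

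The other Frizzled genes overlapped between the groups. Fzd7, which has been tied to mammary stem cells, was the highest in 5 tumors, with 45.4, 30.2 and 25.2 FPKM under IgG and 31.7, 40.3 and 29.7 FPKM under anti-PD-1. Fzd9 exceeded it in IgG replicate 3 alone. Fzd9 had 8.75, 4.73 and 32.4 FPKM under IgG and 17.2, 10.6 and 26.7 FPKM under anti-PD-1, so that the spread within IgG covered the anti-PD-1 values entirely. Its log2 fold change was -0.01 when IgG replicate 2 was left out and 1.27 when IgG replicate 3 was. Fzd6 lay between 13.9 and 21.5 FPKM. Fzd1 had 8.28 to 10.7 FPKM in 5 tumors and 18.6 FPKM in anti-PD-1 replicate 1. Fzd8 had 2.96, 1.71 and 1.75 FPKM under IgG and 3.09, 2.73 and 3.20 FPKM under anti-PD-1, a log2 fold change of 0.37 with IgG replicate 1 among the anti-PD-1 values. Fzd3 ranged from 1.61 to 3.87 FPKM, and Fzd10 had at most 6 reads. The co-receptors Lrp5 and Lrp6 were steady at 21.7 to 29.8 and 17.4 to 22.6 FPKM.

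The receptors of R-spondin were divided between a constant and a variable gene. Lgr4 had 13.5 to 17.0 FPKM in all tumors, and its variation over the tumors was larger than that of only 3.94% of the genes tested. Lgr6 (chromosome 1 from 134983301 to 135105276), a stem cell marker of skin, had 4.24, 21.2 and 1.88 FPKM under IgG and 1.10, 0.634 and 0.0978 FPKM under anti-PD-1. All IgG tumors were above all anti-PD-1 tumors, but IgG replicate 2 alone held most of the signal, 3519 of the 4797 reads on Lgr6. The log2 fold change was -2.16 (standard error 0.70, limma unadjusted p = 0.0171 and adjusted p = 0.355). The group means were 9.12 ± 10.6 and 0.612 ± 0.503 FPKM (SD, n = 3), and the value was -3.35 with 0.1 added in place of 1 and -3.72 with voom. It was -1.32 without IgG replicate 2, and omitting anti-PD-1 replicate 3 gave an unadjusted p of 0.0578. As a share of LGR receptor RNA, Lgr6 made up 20.0%, 57.9% and 10.1% under IgG and 6.42%, 4.00% and 0.717% under anti-PD-1. Lgr5, a target of β-catenin and a marker of intestinal stem cells, had between 6 and 27 reads per tumor, at most 0.103 FPKM.

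IgG replicate 2 also stood apart in the ligands of these receptors. Rspo1 had 0.140, 2.71 and 0.209 FPKM under IgG and 0.101, 0.148 and 0.108 FPKM under anti-PD-1, with 127 of its 160 reads in IgG replicate 2. Rspo3 had 2.09, 0.616 and 2.89 FPKM under IgG and 4.87, 1.59 and 2.41 FPKM under anti-PD-1, and was lowest in IgG replicate 2. Rspo1 thus supplied 81.5% of R-spondin RNA in that tumor and 2.02% to 8.51% in the others, where Rspo3 supplied 91.5% to 98.0%. The same tumor had 77.3 FPKM of Krt19, a keratin of luminal cells, against 1.69 to 7.77 FPKM in the other tumors. Of the other luminal markers, Cdh1 (125 FPKM), Elf5 (74.1 FPKM) and Areg (9.94 FPKM) were also at their highest there, whereas the sum of the list, made up mostly of Epcam, Krt8 and Krt18, was the second lowest at 2392 FPKM. The part of luminal cells in these genes was not tested. IgG replicate 2 was highest for 6 and lowest for 12 of the 36 tested Wnt genes. Rspo4 had 2 reads in all. The ligase Rnf43 had 8.42, 13.2 and 15.4 FPKM under IgG and 9.38, 7.31 and 10.9 FPKM under anti-PD-1, and Znrf3 1.59 to 3.60 FPKM, with overlap in both.

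The summed level of the 11 secreted antagonists differed by less than the spread between tumors, with 44.3 ± 19.7 FPKM (SD, n = 3) in IgG and 38.3 ± 19.4 FPKM (SD, n = 3) in anti-PD-1 tumors. Dkkl1 (chromosome 7 from 45207519 to 45212147), a relative of the Dickkopf proteins known best from sperm, had a large difference between the groups. It had 8.18, 20.9 and 22.2 FPKM under IgG and 6.18, 0.702 and 1.75 FPKM under anti-PD-1. IgG replicate 1 and anti-PD-1 replicate 1 were close to each other, while the other tumors of the groups were more than 10-fold apart. Its log2 fold change was -2.37 (standard error 0.57, limma unadjusted p = 0.00410 and adjusted p = 0.344). The value was -2.90 with 0.1 added in place of 1 and -2.98 with voom. With each tumor left out it lay between -2.95 and -1.91. It was the only Wnt gene to remain past both thresholds in all 6 of these fits. The Dickkopf genes proper were low. Dkk3 had 1.43 to 3.30 FPKM and Dkk2 0.402 to 1.10 FPKM with overlapping groups, and Dkk1, itself a target of β-catenin, had 7 reads in IgG replicate 2 and none elsewhere.

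Sfrp1, which is lost by promoter methylation in many breast cancers, was the most abundant antagonist in 5 of the tumors, with 5.76, 31.8 and 25.7 FPKM under IgG and 37.1, 23.7 and 14.6 FPKM under anti-PD-1. IgG replicate 1 was the low one, and there Dkkl1 took the larger share (37.6% against 26.5%). Sfrp2 had 3.50, 1.11 and 1.51 FPKM under IgG and 11.6, 1.94 and 3.73 FPKM under anti-PD-1. Its highest tumor was anti-PD-1 replicate 1, and the groups overlapped (log2 fold change 0.96, standard error 0.54, limma adjusted p = 0.50). The value was 0.37 without that tumor and 1.43 without anti-PD-1 replicate 2, where it passed both thresholds (limma unadjusted p = 0.0327). Anti-PD-1 replicate 1 also had the highest summed fibroblast markers (368 FPKM), as well as the highest Rspo3 and Sfrp4 (1.43 FPKM, against 0.356 to 0.913 FPKM elsewhere). IgG replicate 2 had the lowest fibroblast sum (88.1 FPKM), Sfrp2 and Rspo3. Most of that sum was Col1a1, Col1a2 and Col3a1, whereas Pdgfra, Pdgfrb, Dcn, Lum and Pi16 were lowest in anti-PD-1 replicate 2. The part of the fibroblast content in these genes was not tested. Wif1 (2 to 43 reads), Frzb (0 to 30) and Sfrp5 (1 to 13) were below 0.5 FPKM on average.

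Inside the cell, Ctnnb1 had 143, 118 and 120 FPKM under IgG and 137, 166 and 127 FPKM under anti-PD-1, and its log2 fold change was 0.17 (standard error 0.18). It was 0.02 after quantile normalization, and omitting single tumors gave 0.06 to 0.26. Ctnnb1 lies on chromosome 9, where the median log2 fold change of 798 tested genes was -0.36 and 82.3% were lower. Axin1 had 11.6 to 19.1 FPKM and Apc 6.40 to 8.37 FPKM. Axin2, which β-catenin induces and which is often read as a gauge of the canonical branch, was low in all tumors. It had 0.205, 0.361 and 0.140 FPKM under IgG and 0.0920, 0.0893 and 0.175 FPKM under anti-PD-1, from 12 to 48 reads, with overlapping groups. Gm11670, on the other strand, shares 209 exonic bases with Axin2 and had up to 1.32 FPKM. Of the nuclear factors, Tcf7l2 (3.56 to 8.27 FPKM) and Tcf7l1, mainly a repressor (2.58 to 4.29 FPKM), were the main ones. Tcf7 had 0.587 to 1.87 FPKM. Lef1 had 2.03, 0.155 and 0.134 FPKM under IgG and 0.590, 1.14 and 2.33 FPKM under anti-PD-1. It made up 16.0% of TCF/LEF RNA in IgG replicate 1 and at most 1.68% in the other IgG tumors, against 5.52% to 21.7% in anti-PD-1 tumors. The log2 fold change of Lef1 was 0.50 (standard error 0.45, limma adjusted p = 0.669). It was 0.97 without IgG replicate 1, and 0.27, 0.26 and 0.22 without IgG replicate 2, IgG replicate 3 and anti-PD-1 replicate 3. It was 1.34 with 0.1 added in place of 1 and 1.75 with voom.

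Beyond these genes, 44 other components of the pathway were looked at, and 37 were tested. None had a limma adjusted p under 0.05, and 6 of 37 had an unadjusted p under 0.05 (12.3% of all genes). Past both thresholds none was higher (3.90% of all genes) and 4 were lower (4.53% of all genes). In either direction this made 10.8% of the 37, against 8.43% of all genes. The 4 were Trabd2b, a protease that cuts Wnt ligands (log2 fold change -1.07), Bcl9l, a β-catenin coactivator (-0.89), Dvl1, which relays the Frizzled signal (-0.70), and Ctnnbip1, an inhibitor of β-catenin (-0.66). Of these 4, only in Trabd2b did the groups not overlap. Among the 37, 3 were higher and 3 lower without overlap (16.2%, against 18.1% of all genes). Leaving out IgG replicate 2, anti-PD-1 replicate 2 or anti-PD-1 replicate 3 left 0 of these components lower past both thresholds, and leaving out IgG replicate 3 left 1. In these 4 fits 386, 494, 454 and 563 of all 15069 genes were lower past both thresholds, in that order, against 683. Trabd2b, Dvl1 and Ctnnbip1 lie on chromosome 4 and Bcl9l on chromosome 9. The median log2 fold change was -0.40 over the 926 tested genes of chromosome 4 and -0.36 over those of chromosome 9. Of all tested genes there, 83.6% on chromosome 4 and 82.3% on chromosome 9 had a log2 fold change below 0. Of the 10 tested components on these 2 chromosomes 9 had a log2 fold change below 0, and of the 27 on the others 9 did. Rspo1 and Wnt4, which also lie on chromosome 4, were at -0.62 and 0.23. Rspo1 was at -0.07 without IgG replicate 2, and Wnt4 ran from 0.07 to 0.42 with each tumor left out. With 0.1 added in place of 1 these genes were at -1.44 and 0.65, and with voom at -1.84 and 0.81. Of 25 target genes of β-catenin, 7 of them among the 59 Wnt genes, 15 were tested. Ccnd1, which drives entry into the cell cycle, was the only one past both thresholds, 6.67% of the 15 against 8.43% of all genes (62.7, 52.3 and 38.3 FPKM under IgG and 86.7, 76.9 and 116 FPKM under anti-PD-1), and 7 of the 15 had a log2 fold change above 0. Without IgG replicate 1 there were 3 targets higher and 2 lower past both thresholds, in a fit where 999 and 1234 of the 15069 genes were. Sp5 and Notum, which are induced by β-catenin in many tissues, were listed at 0 in all tumors. Myc had 20.1 to 31.1 FPKM with overlapping groups.

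**Figure D4:**
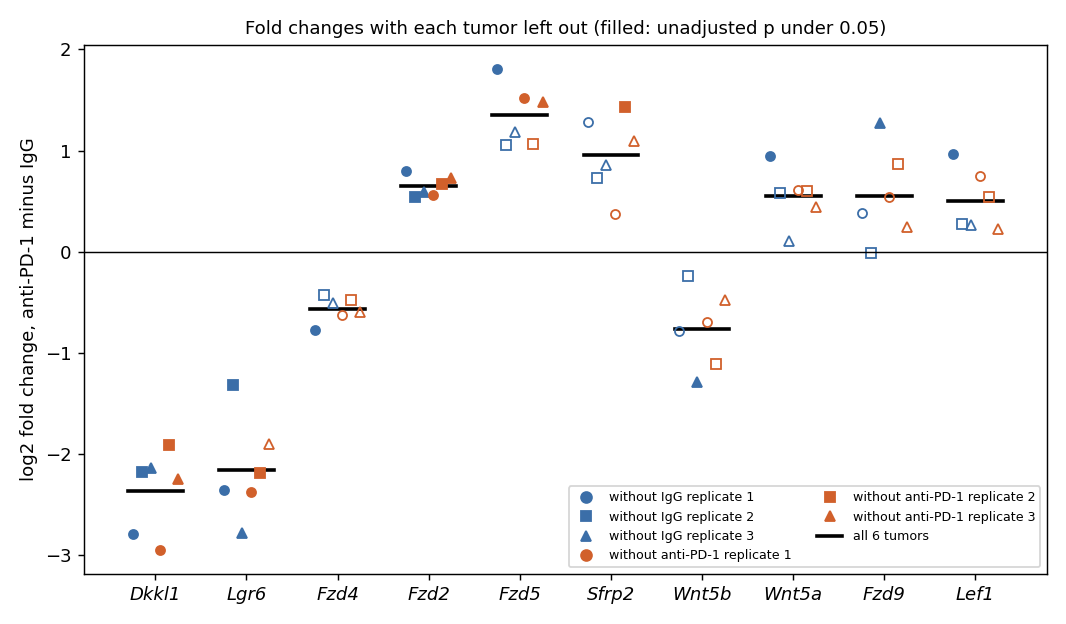
Log2 fold change, anti-PD-1 minus IgG, of 10 Wnt genes with each tumor left out in turn (1 symbol per fit, filled at an unadjusted p under 0.05) and with all 6 tumors (black line). Dkkl1 stays between -2.95 and -1.91, Lgr6 moves to -1.32 without IgG replicate 2, and Fzd9 runs from -0.01 to 1.27.

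The number of Wnt genes past both thresholds moved with single tumors. Without IgG replicate 1 there were 4 higher (Fzd2, Fzd5, Lef1 and Wnt5a) and 4 lower (Dkkl1, Fzd4, Lgr6 and Rnf43), and over all genes 999 were higher and 1234 lower in place of 587 and 683. Without IgG replicate 2 there were 0 higher and 2 lower (Dkkl1 and Lgr6), and over all genes 352 and 386. No Wnt gene had a limma adjusted p under 0.05 in any of the fits with 1 tumor left out, and the smallest was 0.10, without IgG replicate 1. Over all genes, 12 had one without IgG replicate 1, 1 without IgG replicate 3 and 0 in the other fits. An unadjusted p under 0.05 was found for 9 of the 36 Wnt genes and 17.8% of all genes without IgG replicate 1, and for 3 of the 36 and 6.33% of all genes without IgG replicate 2, with the other fits between these shares of all genes.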

How the data were processed

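RNA of 6 tumors (3 IgG, 3 anti-PD-1, grouped by their labels) was measured by RNAseq. The authors deposited FPKM per Ensembl gene ID, 1 file per tumor, and how the FPKM were computed and whether strand was used are not given in the sources used here. The submitters' processing notes name FastQC 0.11.9, cutadapt 3.5, Bowtie2 2.4.1, RSEM 1.3.1, DESeq2 1.36.0 and R 4.1, with mm10. FPKM were divided by median-of-ratios factors (1.00 to 1.01), and genes with a mean of at least 0.5 FPKM were kept (15069). log2(FPKM + 1) was fitted with limma 3.58.1 (trended eBayes) in R 4.3.3 with Benjamini-Hochberg adjustment over all genes kept. The procedure was also run on simulated reads with the same dispersion for every gene, which cannot show its error rate on these tumors. Exact permutation tests were two-sided. Names, exon lengths and coordinates came from GENCODE M21 (Ensembl 96, GRCm38), in which 54409 IDs were found and 123 were not. Upstream windows came from RefSeq (GRCm38.p6). Reads were recovered as FPKM times exon length, divided by a value of 1 read that was estimated for each tumor. Of the values above 0, 97.0% to 97.3% then lay within 0.1 of a whole number. Every Wnt gene was named, with full statistics for those past both thresholds or without overlap. The genes, marker lists and pathway lists were chosen with earlier results of these data known. Alternatives covered the added constant, the filter, the scaling, the variance model, voom on recovered reads, a block for the replicate number, and each tumor omitted in turn.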

Additional observations from a re-analysis of the deposited data

How the results depend on the processing

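No Wnt gene had an adjusted p under 0.05 under any alternative tried, and the smallest adjusted p ran from 0.10 to 0.761. Of 492 log2 fold changes of single Wnt genes under the alternatives, 454 kept their direction and their side of the thresholds, 6 dropped below them, 11 rose past them and 21 changed sign, none of the last from an absolute value above 0.55. Without each tumor in turn, 0 to 4 Wnt genes were higher and 1 to 4 lower past both thresholds. For the β-catenin targets these counts were 1 to 3 and 0 to 2, and for the other components 0 to 3 and 0 to 6. Voom on the recovered reads gave 1 other component that was higher in place of 0. The count of all genes past both thresholds was 999 higher and 1234 lower without IgG replicate 1, and 352 and 386 without IgG replicate 2, against 587 and 683. Adding 0.1 in place of 1 took Fzd4 to -0.86 and voom took it to -0.92, both past 1.5-fold, while quantile normalization and no filter gave it limma unadjusted p-values of 0.0527 and 0.0752.

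Same-numbered tumors of the 2 groups had correlations of deviations from the group mean of -0.16, 0.01 and 0.19. Tumors with different numbers were not compared in this way, so whether the replicate numbers pair the tumors cannot be decided. With the replicate number as a block, 3 Wnt genes were higher (Sfrp2 added) and 3 lower (Wnt5b added), and of the other components 3 were higher and 1 lower past both thresholds, in a fit where 663 of all genes were higher and 671 lower. Fzd4 had a limma unadjusted p of 0.0778 with the block.

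Fzd7 was at -0.04 after quantile normalization. Leaving out each tumor gave sign changes, with log2 fold changes of -0.11 to 0.04 for Apc, -0.33 to 0.01 for Axin1, -0.01 to 0.24 for Dkk2, -0.21 to 0.21 for Dkk3, -0.12 to 0.17 for Fzd6, -0.14 to 0.27 for Fzd7, -0.01 to 1.27 for Fzd9, -0.28 to 0.86 for Sfrp1, -0.09 to 0.31 for Sfrp4, -0.27 to 0.16 for Tcf7, -0.07 to 0.21 for Tcf7l1, -0.33 to 0.18 for Tcf7l2, -0.88 to 0.03 for Wnt7b and -0.25 to 0.17 for Znrf3. The cause of these changes was not tested. The depth limits the 23 genes under 0.5 FPKM, of which 19 were fitted only when the filter was dropped.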
